A study of Mus musculus with 4 samples.

Results

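A set of 9 chemokine genes was measured in mouse Langerhans cells on 4 arrays: Ccl5, Ccl3, Ccl4, Ccl2, Ccl17, Ccl22, Cxcl16, Cxcl2 and Cxcl9. The members were all probe sets that the platform annotation assigns to exactly 1 of these symbols, which gave 10 of the 22626 probe sets that are not array controls. Cxcl16 had 2 probe sets and each of the other genes had 1. The arrays measured RNA of sorted Langerhans cells, dendritic cells that reside in the epidermis and present antigen, with a sorting purity given as 95%. All mice received 100 µl by injection and cells were taken 24 h later. TCDD samples came from mice given 10 µg TCDD (2,3,7,8-tetrachlorodibenzo-p-dioxin, which binds the aryl hydrocarbon receptor, AhR), in oil for TCDD 1 and in DMSO and oil for TCDD 2. Control 1 received DMSO and olive oil. Control 2 is a control by its title and description, but its treatment protocol lists TCDD, so results are also given without it. No skin site is named for control 1 and TCDD 1, and back skin is named for control 2 and TCDD 2. The descriptions date control 1 and control 2 to different experiments. Skin site and experiment cannot be told apart and are together called the preparation, which is only assumed to pair the arrays. The sources used here give no strain, age, sex or number of mice and do not say whether cells were pooled, so the spread between samples may be technical.

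Chemokines are small secreted proteins that bind G protein-coupled receptors and direct the migration of leukocytes. Dendritic cells secrete them in a set that changes with maturation: ligands of Ccr4 draw T cells, ligands of Cxcr2 draw neutrophils, and ligands of Ccr1 and Ccr2 draw monocytes and effector T cells. Langerhans cells are also known to begin maturing when they are released from the epidermis.

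All values are MAS5 signals, the summary of the probes of a probe set on a linear scale, and all 4 arrays had been scaled to a trimmed mean of 500. The 20th percentile signal of the arrays lay between 36.6 and 40.6 and the median between 164.9 and 188.1. The actin 3′ to 5′ ratio, which compares control probe sets at both ends of the transcript and climbs as RNA gets shorter, was highest on control 1 (49.7), followed by TCDD 2 (7.71), control 2 (4.64) and TCDD 1 (3.48). Of 11 Langerhans cell markers on the array, 0 lay below the 20th percentile on all arrays. Epcam lay between 7541 and 10032, whereas Cdh1 (E-cadherin) and Itgax (CD11c), which are also used to define these cells, were dim, at 137.8 to 206.6 and at 115.3 to 230.7. Cd207 (langerin) read 2120 (control 1) and 5343 (TCDD 1) in the pair with no site named and 7210 (control 2) and 2155 (TCDD 2) in the back skin pair.

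**Figure D1:**
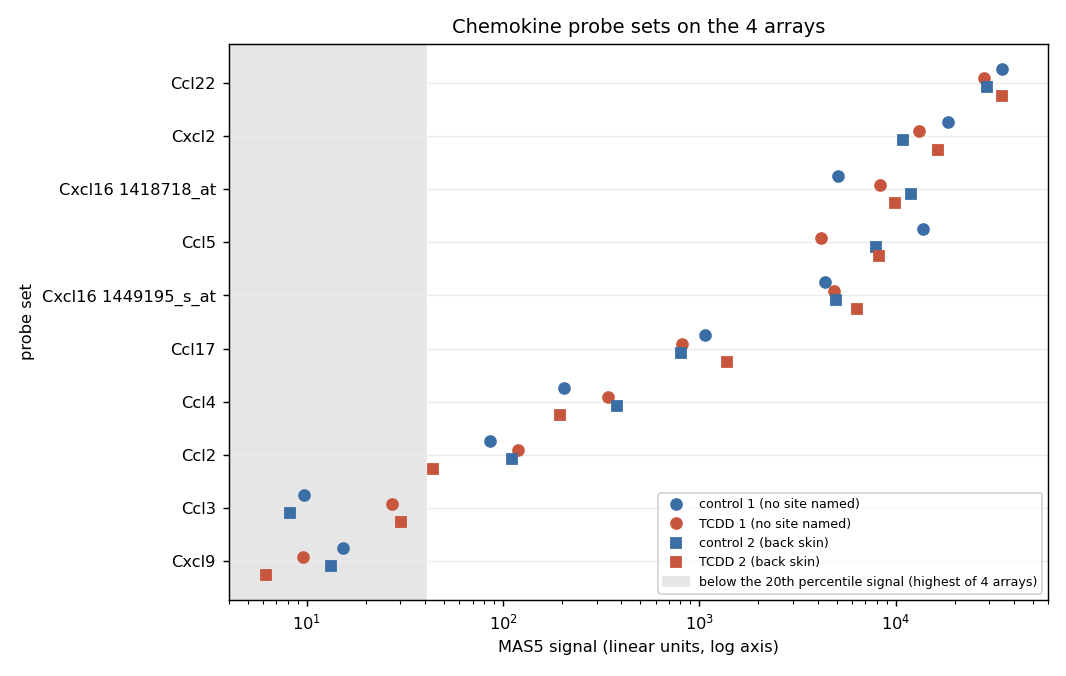
MAS5 signal on a log axis of the 10 chemokine probe sets, ordered by mean signal. Circles are the arrays with no site named, squares those from back skin, blue controls and red TCDD; the grey area lies below the highest 20th percentile signal of the 4 arrays (40.6), where all values of Ccl3 and Cxcl9 fall.

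The study compared gene expression of Langerhans cells with and without TCDD, and none of the chemokines gave a call. The 7 probe sets with a mean log2 signal of at least 6.85, the 40th percentile, were tested, and those of Ccl2, Ccl3 and Cxcl9 lay below it. Of the 7 tested, 0 passed an adjusted p of 0.05 for TCDD against control (limma, adjusted p = 0.9999 for each), as did 0 of all 13576 probe sets tested, 0%. At an unadjusted p under 0.05 the count was 0 of 7, against 199 of 13576 probe sets, 1.47%. The fit had treatment and preparation as terms. An exact permutation test of 2 against 2 arrays cannot give a two-sided p below 0.333. The median log2 difference of the 7 was 0.05, and that of all tested probe sets was -0.01.

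Ccl22 (probe set 1417925_at), a ligand of Ccr4 that attracts regulatory and helper T cells and is a hallmark of mature dendritic cells, was among the brightest signals of every array. It read 34761 (control 1) and 28132 (TCDD 1) in the pair with no site named and 29083 (control 2) and 34714 (TCDD 2) in the back skin pair. Only 2, 5, 19 and 4 of the 22626 probe sets were brighter on those arrays in that order. No saturation flags are given in the sources used here. The highest value was 1.24 times the lowest, and the control and TCDD values overlapped. TCDD minus control was -0.02 ± 0.27 on the log2 scale (SE, n = 2 per group), with a 95% interval from -0.63 to 0.58.

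Ccl17 (1419413_at), the other ligand of Ccr4, lies near Ccl22 on chromosome 8, with only Cx3cl1 between them among coding genes. It read 1072.6 (control 1) and 818.5 (TCDD 1) in the pair with no site named and 803.2 (control 2) and 1390.5 (TCDD 2) in the back skin pair. As for Ccl22, control 1 and TCDD 2 were the higher arrays and the groups overlapped. The log2 difference was 0.20 ± 0.40, with an interval from -0.70 to 1.10.

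Cxcl2 (1449984_at), a ligand of Cxcr2 that attracts neutrophils, read 18417 (control 1) and 13091 (TCDD 1) in the pair with no site named and 10962 (control 2) and 16464 (TCDD 2) in the back skin pair. Again control 1 and TCDD 2 were the higher arrays. The log2 difference was 0.05 ± 0.33, with an interval from -0.71 to 0.81.

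The sequences before the transcription starts of these 3 genes are shown because control 1 and TCDD 2 were their higher arrays, a split that Ccl5 below shares, and because TCDD acts through a DNA-binding factor. Each is the 250 bases that end just before the start in the RefSeq promoter table of GRCm38.p6, which held 5 of the 9 genes (Ccl3, Ccl17, Ccl22, Cxcl2 and Cxcl9). The windows are chr8:94745434-94745683 on the + strand for Ccl22, chr8:94810203-94810452 on the + strand for Ccl17 and chr5:90903649-90903898 on the + strand for Cxcl2. Capitals mark matches on either strand to the core of the AhR binding element (GCGTG), the NF-kB consensus, the STAT6 motif (TTCNNNNGAA) or the interferon-gamma activated site (TTCNNNGAA).
Ccl22: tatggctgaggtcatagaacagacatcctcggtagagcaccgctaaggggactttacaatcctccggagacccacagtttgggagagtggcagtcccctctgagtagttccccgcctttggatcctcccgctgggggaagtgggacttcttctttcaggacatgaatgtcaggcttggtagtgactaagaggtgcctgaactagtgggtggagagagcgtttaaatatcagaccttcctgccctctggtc
Ccl17: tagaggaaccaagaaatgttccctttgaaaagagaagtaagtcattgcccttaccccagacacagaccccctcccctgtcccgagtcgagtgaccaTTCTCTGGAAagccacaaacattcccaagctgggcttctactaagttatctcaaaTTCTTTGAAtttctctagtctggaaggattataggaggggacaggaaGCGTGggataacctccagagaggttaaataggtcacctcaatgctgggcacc
Cxcl2: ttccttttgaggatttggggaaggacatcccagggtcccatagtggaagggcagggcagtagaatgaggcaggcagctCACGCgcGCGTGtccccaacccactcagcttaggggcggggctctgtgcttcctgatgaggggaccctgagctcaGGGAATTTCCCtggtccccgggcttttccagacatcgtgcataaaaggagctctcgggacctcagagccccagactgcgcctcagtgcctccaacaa
Positions are counted back from the start, whose first upstream base is -1. The Ccl17 window holds GCGTG at -52 to -48, TTCTCTGGAA at -154 to -145 and TTCTTTGAA at -99 to -91. The Cxcl2 window holds GCGTG at -165 to -161, the same letters on the other strand at -172 to -168, and 2 overlapping matches to the NF-kB consensus at -97 to -88 and -96 to -87. In the Ccl22, Ccl3 and Cxcl9 windows these letters were not present. Of 32851 windows of this length in the table, 28.2% held GCGTG, 7.3% the NF-kB consensus, 5.9% the STAT6 motif and 7.0% the interferon-gamma activated site. A match describes letters and says nothing of binding.

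Cxcl16, a transmembrane chemokine that is shed from the cell and binds Cxcr6 on T cells, was measured by 2 probe sets. By 1418718_at it read 5111 (control 1) and 8364.4 (TCDD 1) in the pair with no site named and 11922 (control 2) and 9954.5 (TCDD 2) in the back skin pair. Control 1 was the lowest array, control 2 the highest, and the TCDD values lay between those of the controls. By 1449195_s_at it read 4370.3, 4842.9, 4951 and 6359.8 in the same order, with TCDD 2 the highest. The log2 difference for TCDD was 0.23 ± 0.34 (interval from -0.55 to 0.998) by the first probe set and 0.25 ± 0.31 (-0.46 to 0.97) by the second. In back skin the probe sets disagreed in sign: TCDD 2 over control 2 was -0.26 by 1418718_at and 0.36 by 1449195_s_at.

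Ccl5 (1418126_at), or RANTES, which attracts T cells and monocytes through receptors such as Ccr1 and Ccr3, spread most among the bright members. It read 13766 (control 1) and 4179.4 (TCDD 1) in the pair with no site named and 7912.7 (control 2) and 8229.4 (TCDD 2) in the back skin pair. The signal of control 1 was 3.29 times that of TCDD 1, whereas control 2 and TCDD 2 differed by 1.04 times, and TCDD 2 lay between the controls. The log2 difference was -0.83 ± 0.43, with an interval from -1.80 to 0.14 (limma, unadjusted p = 0.0837, adjusted p = 0.9999). Leaving out control 1 gave -0.43 and leaving out TCDD 1 -0.34, whereas the value was -1.23 with control 2 left out and -1.32 with TCDD 2 left out. In these fits a group has a lone array, assumed to vary like the others. The preparation term is left out too, since 3 arrays cannot carry both terms and a residual. With control 2 left out the lone control is control 1, the array with the highest actin 3′ to 5′ ratio (49.7).

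Ccl4 (1421578_at), or MIP-1 beta, which attracts monocytes and T cells, was dim. It read 204.2 (control 1) and 342.2 (TCDD 1) in the pair with no site named and 380.2 (control 2) and 194.2 (TCDD 2) in the back skin pair. Here control 1 and TCDD 2 were the lower arrays, opposite to Ccl22, Ccl17 and Cxcl2. The log2 difference was -0.11 ± 0.45, with an interval from -1.14 to 0.92. T cells also express Ccl4, and the summed signal of 16 T cell markers had the same order of arrays, highest on control 2 (3440), followed by TCDD 1 (2507), control 1 (2000.2) and TCDD 2 (1693). Control 1 and TCDD 2 were the lower arrays for 24.2% of all tested probe sets, among them that of the Langerhans cell marker Cd207. The part of T cells in the result was not tested. Among the markers, Cd3e lay between 112.7 and 471.3 and Cd3d was below the 20th percentile on all 4 arrays. Ccl5, which T cells express too, had its highest value on control 1, and the part of T cells in it was not tested either. In such bulk samples fewer cells of a type and less RNA per cell cannot be told apart.

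The other 3 genes lay below the filter. Ccl2 (1420380_at), the monocyte attractant that binds Ccr2, read 86 (control 1) and 118.7 (TCDD 1) in the pair with no site named and 111.4 (control 2) and 43.8 (TCDD 2) in the back skin pair, with the lowest value on TCDD 2 and overlapping groups. Ccl3 (1419561_at), or MIP-1 alpha, a ligand of Ccr1 encoded beside Ccl4, read 9.7, 27.3, 8.2 and 30.3 in that order. Cxcl9 (1418652_at), an interferon-gamma induced ligand of Cxcr3, read 15.3, 9.6, 13.3 and 6.2. All values of Ccl3 and Cxcl9 lay below the 20th percentile of their arrays, so no fold is given. In both, the groups did not overlap: the TCDD arrays were above the controls for Ccl3 and below them for Cxcl9. Without a filter 12.8% of 22626 probe sets had both TCDD arrays above both controls and 14.9% had both below. With no filter the 3 genes were not called (limma, adjusted p = 1 for each), and the log2 difference of Ccl2 was -0.44 ± 0.67.

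**Figure D2:**
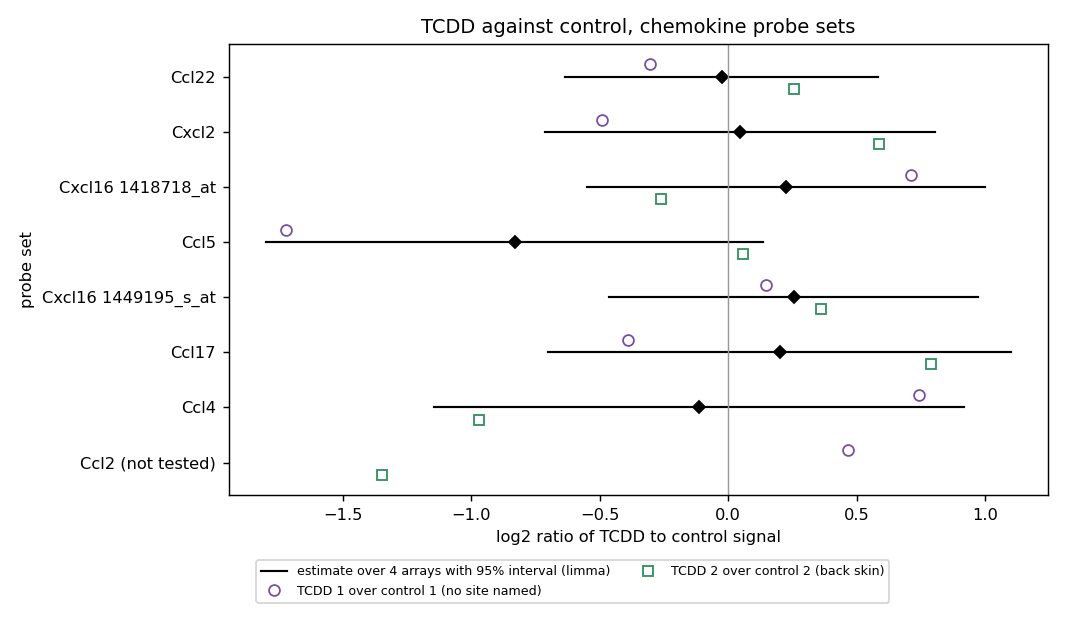
Log2 ratio of TCDD to control for the chemokine probe sets other than those of Ccl3 and Cxcl9, over 4 arrays with its 95% interval (black diamonds and lines) and within each preparation (open symbols, 1 pair of arrays each). The intervals of all 7 tested probe sets include 0, and the open symbols lie on opposite sides of 0 for 6 of those 7.

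The ratio of TCDD to control went opposite ways in the preparations for 6 of the 7 tested probe sets. For the pair with no site named and then the back skin pair it was -1.72 and 0.06 for Ccl5, -0.39 and 0.79 for Ccl17, -0.31 and 0.26 for Ccl22, and -0.49 and 0.59 for Cxcl2, on the log2 scale. These 4 were lower after TCDD in the former pair and higher in the latter, as were 25.8% of all tested probe sets. For Ccl4 the ratios were 0.74 and -0.97 and for Cxcl16 by 1418718_at 0.71 and -0.26, the reverse order, which 33.5% of tested probe sets had. Cxcl16 by 1449195_s_at was higher after TCDD in both (0.15 and 0.36), as were 19.3%; 0 of the 7 were lower in both, as were 21.3%. Under quantile normalization the back skin ratio of Ccl5 turned to -0.09, and the other signs were the same under quantile normalization and median centring. Median centring moved the median ratio of all tested probe sets with no site named from 0.03 to -0.10. With 4 arrays in 4 combinations of treatment and preparation no test of this difference is possible.

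The same pattern can be read as a split of the arrays. Control 1 and TCDD 2 were the higher arrays for Ccl5, Ccl17, Ccl22 and Cxcl2, 4 of 7 tested, and the lower arrays for Ccl4, 1 of 7; over all 13576 tested probe sets the shares were 18% and 24.2%. Under quantile normalization TCDD 2 was no longer above control 2 for Ccl5. Some other measures moved with this split, most of them in part. The actin 3′ to 5′ ratio was highest on control 1 and TCDD 2. The summed signal of 11 keratinocyte markers was 1839 on control 1 and 2242 on TCDD 2, against 1614 on TCDD 1 and 1608 on control 2, with Krt15 and Col17a1 below the 20th percentile on all arrays. Without Lor and Dsp, the 2 brightest, the sums were 696.6 (control 1), 846.3 (TCDD 1), 969.4 (control 2) and 1089 (TCDD 2), so that control 1 was then the lowest, and of the 6 tested keratinocyte markers 3 were highest on control 1 and TCDD 2 and 1 lowest. Of 11 tested T cell markers 6 were lowest on those arrays and 0 highest, whereas Cd8a and Fyb read highest on control 1. Of 11 Langerhans cell markers 3 were lowest there (Cd207, Cdh1 and H2-Eb1) and 0 highest, and their summed signal was lowest on control 1 (44148) and highest on control 2 (67413), with 52885 on TCDD 1 and 53558 on TCDD 2. The summed signal of 13 monocyte, macrophage and granulocyte markers was 2690 (control 1) and 2571 (TCDD 2) against 2832.5 (TCDD 1) and 2952 (control 2), with S100a8 below the 20th percentile on all. Of the 8 tested among these 2 were lowest on control 1 and TCDD 2 and 1 highest, and without Adgre1 and Cd14, the 2 brightest, TCDD 1 had the lowest sum (1227.9). The part of these measures in the chemokine values was not tested.

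**Figure D3:**
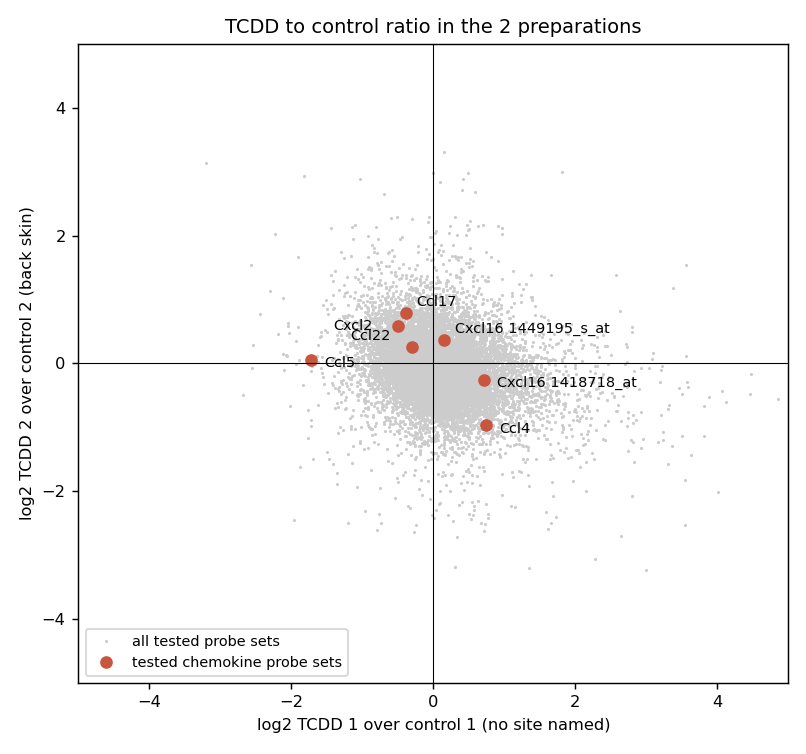
Log2 ratio of TCDD to control with no site named (horizontal axis) and in back skin (vertical axis) for all 13576 tested probe sets (grey) and the 7 tested chemokine probe sets (red). Ccl5, Ccl17, Ccl22 and Cxcl2 lie to the left of and above 0, Ccl4 and 1 of the Cxcl16 probe sets to the right and below.

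Back skin against the other preparation gave 0 of 7 calls, as it did 0 of 13576 over all probe sets, 0% (limma); at an unadjusted p under 0.05 the counts were 0 of 7 and 274 of 13576, 2.02%. Cxcl16 differed most, by 0.74 ± 0.34 with an interval from -0.04 to 1.51 by 1418718_at (limma, unadjusted p = 0.0594, adjusted p = 0.9994) and by 0.29 ± 0.31 by 1449195_s_at. Both back skin arrays were above both others by each probe set, which 16.1% of tested probe sets showed. For the other tested members the difference lay between -0.21 for Cxcl2 and 0.17 for Ccl17. Control 2 over control 1 and TCDD 2 over TCDD 1 ran opposite ways for Ccl5 (-0.80 and 0.98), Ccl4 (0.90 and -0.82), Ccl17 (-0.42 and 0.76), Ccl22 (-0.26 and 0.30) and Cxcl2 (-0.75 and 0.33).

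**Figure D4:**
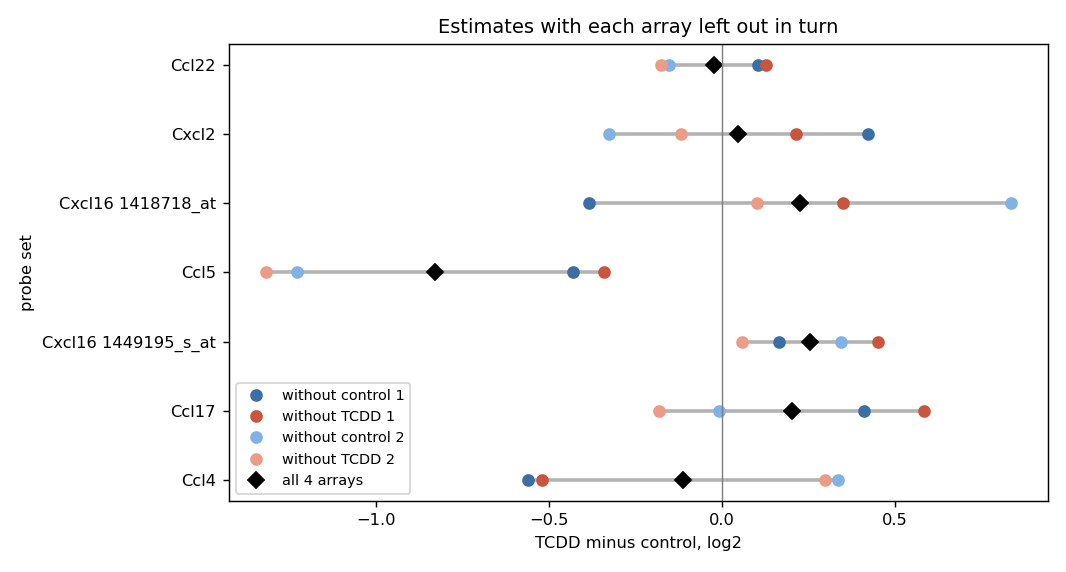
TCDD minus control on the log2 scale for the 7 tested probe sets with all arrays (black diamonds) and with each array left out (coloured circles, fitted with no preparation term, grey line from lowest to highest). Only Ccl5, from -1.32 to -0.34, and Cxcl16 by 1449195_s_at, from 0.06 to 0.45, keep to 1 side of 0.

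With each array left out in turn, together with the preparation term, 0 of the 7 tested chemokine probe sets passed. The calls over all probe sets were then 0, 0, 12 and 285, and the highest were 0.0884% without control 1 and 2.1% without control 2, against 0 with all 4 arrays and no preparation term. For back skin against the other preparation, with the treatment term left out, 0 of 7 passed in each case, and 0.656% of all probe sets did without TCDD 1. Without control 2, the sample with conflicting labels, Cxcl16 by 1418718_at was 0.84, and without control 1 it was -0.39. Also without control 2, Ccl17 was -0.0078, Ccl22 -0.15 and Cxcl16 by 1449195_s_at 0.34. Control 1, the array with the highest actin 3′ to 5′ ratio, is then the lone control. Cxcl2 was -0.33 without control 2 and 0.42 without control 1. Ccl4 was 0.34 without control 2 and -0.56 without control 1.

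For tested members whose brightest probe set ranged over more than 1 log2 unit, the genes of most like pattern were sought among all tested probe sets, by the distance between centred log2 signals over the 4 arrays. For Ccl5 they were Gbp2, an interferon-induced GTPase, at a distance of 0.06, and Chst7, a sulfotransferase, at 0.21. Gbp2 read 351.1 (control 1) and 110.3 (TCDD 1) in the pair with no site named and 206 (control 2) and 204.8 (TCDD 2) in the back skin pair. For Cxcl16 by 1418718_at they were Scnm1, a splicing factor, and Foxp1, a transcription factor, at 0.06 and 0.07. Many probe sets of 13576 can match over 4 arrays, so likeness here is only a description.

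The remaining chemokine ligands were mostly dim. Of 26 listed, 24 had a probe set and 11 were tested, with 0 calls for TCDD or preparation and a median TCDD log2 difference of 0.17, against -0.01 over all probe sets. Cxcl1, a neutrophil attractant encoded next to Cxcl2 and named after its values were seen, was the brightest: 10263 (control 1) and 8631 (TCDD 1) in the pair with no site named and 7227 (control 2) and 12188 (TCDD 2) in the back skin pair. Its arrays split as those of Cxcl2 did. By size of the TCDD difference the first were Ccl8 (0.36 ± 0.34), the interferon-induced Cxcl10 (-0.31 ± 0.38) and Cxcl13, which attracts B cells (-0.26 ± 0.45). Of the 11, 3 were higher and 1 lower after TCDD in both preparations, against 19.3% and 21.3% of all tested probe sets.

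**Figure D5:**
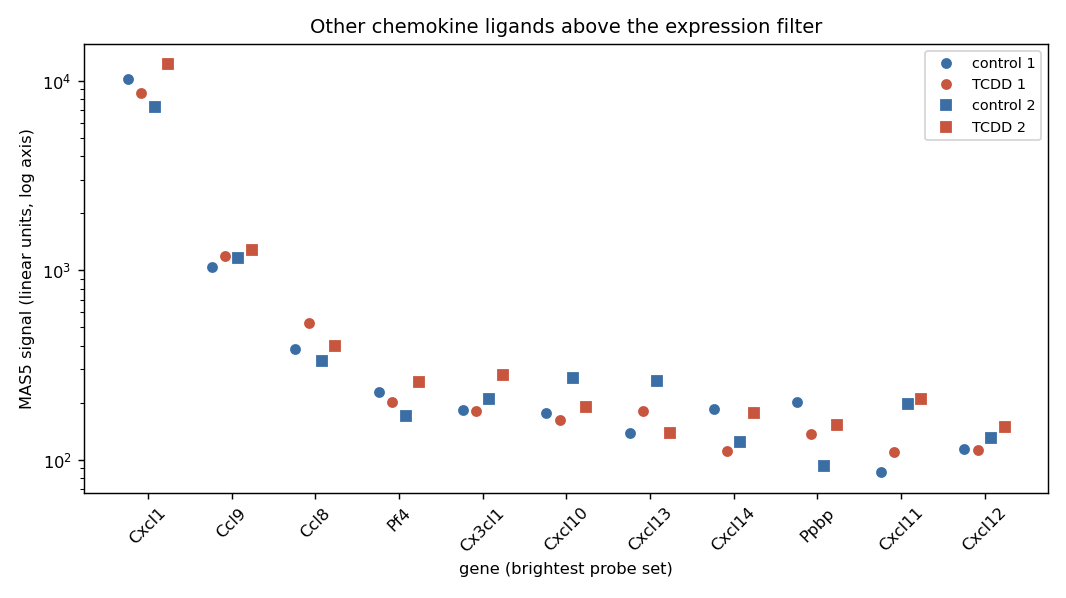
MAS5 signal on a log axis of the 11 other chemokine ligands above the filter, on each array (blue controls, red TCDD, circles no site named, squares back skin). Cxcl1 lies between 7227 and 12188, Ccl9 between 1039 and 1282, and the rest below 530.

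The receptors for these chemokines were dim in the sorted cells. Of 11 with a probe set 6 were tested, between 101.8 and 353.6, with 0 calls and a median difference of -0.03. Ackr2, a scavenger of CC chemokines, differed by 0.49 ± 0.44, Ccr4, the receptor of Ccl17 and Ccl22, by -0.17 ± 0.46 and Cxcr6, the receptor of Cxcl16, by -0.11 ± 0.38. Among 9 genes of chemokine shedding, cleavage and secretion 5 were tested, with 0 calls and a median of -0.06. Adam17, a membrane protease that sheds cytokines and receptors, differed by -0.44 ± 0.35, Sdc4, a syndecan, by 0.23 ± 0.38 and Srgn, a proteoglycan of secretory granules, by 0.23 ± 0.29. Adam10, which releases Cxcl16 from the membrane and is named outside the rule, differed by -0.06 ± 0.34.

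Regulators known to act on chemokine genes gave no calls either. For comparison with their counts, 19.3% of all tested probe sets were higher and 21.3% lower after TCDD in both preparations. Of 13 tested genes of NF-kB signalling, 3 were higher and 4 lower after TCDD in both preparations, with a median of -0.03. Il1b, the cytokine interleukin 1 beta, differed by 0.91 ± 0.32 and was the 1 gene with an unadjusted p under 0.05 (limma, unadjusted p = 0.0212, adjusted p = 0.9999), followed by Ikbkg, a kinase subunit (-0.38 ± 0.37), and Relb (0.38 ± 0.43). Of 14 tested genes of the interferon-gamma response, 3 were higher and 3 lower in both (median -0.04). Gbp2 differed by -0.84 ± 0.47, Gbp3 by -0.43 ± 0.38 and Iigp1, a further interferon-induced GTPase, by -0.39 ± 0.36. The log2 ratio with no site named and then in back skin was -1.67 and -0.01 for Gbp2. It was -0.89 and 0.03 for Gbp3 and -0.23 and -0.55 for Iigp1. Of 13 tested genes of interleukin 4 and GM-CSF signalling, which induces Ccl17 and Ccl22 in dendritic cells, 4 were higher and 4 lower in both (median 0.13). Csf2rb, the shared beta chain of the GM-CSF receptor, differed by 1.04 ± 0.47. It read 408.8 (control 1) and 1628 (TCDD 1) in the pair with no site named. The back skin pair read 1060 (control 2) and 1129 (TCDD 2). Its log2 ratio was thus 1.99 in the former pair and 0.09 in the latter. Its lowest value was on control 1, the array with the highest actin 3′ to 5′ ratio (49.7). Csf2ra and the brighter Csf2rb2 of the same list, named outside the rule, were lower after TCDD in both pairs. They differed by -0.44 ± 0.36 and -0.32 ± 0.29. Irf4, a transcription factor of migrating dendritic cells, differed by 0.74 ± 0.42 and Cish, a feedback inhibitor, by 0.54 ± 0.37.

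Genes of dendritic cell maturation and migration ranged from dim to bright, with Il12b between 122 and 165.8. Of 13 tested, 3 were higher and 2 lower after TCDD in both preparations, against 19.3% and 21.3% of all tested probe sets. The 13 had 0 calls and a median of -0.11. Relb (0.38), the costimulatory Cd80 (0.32 ± 0.34) and Cd200 (-0.25), an inhibitory surface protein, had the largest differences. On control 1 and TCDD 2, 6 of the 13 were higher than on the other arrays (Cd86, Cd83, Fscn1, Icam1, Marcksl1 and Socs3) and 1 was lower (Relb). Ccl22, Ccl17 and Cxcl2 were also higher there, as were 18% of all 13576 tested probe sets, and 24.2% were lower there. Fscn1, the actin bundler of mature dendritic cells, which was named after its values were seen, lay between 26172 and 33888.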

How the data were processed

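RNA was extracted with Trizol, amplified, labelled with biotin and hybridised to 1-colour Affymetrix arrays, per the labels' protocols. The deposited values are signal intensities on a linear scale, made by the authors with affy and MAS5 per the submitters' processing notes; the sources used here give no versions, background settings or detection calls. Amplification and labelling from the 3′ end make a signal depend on RNA length. Of 22690 probe sets, 64 are array controls; of the rest 20380 had 1 gene symbol, 691 several and 1555 none in the platform annotation, and all 9 gene IDs of the members matched RefSeq. Members and gene lists were chosen with earlier results of these data known.

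Samples were grouped by title and description, with replicate numbers in accession order. Signals were taken to log2 with no offset. Probe sets at or above the 40th percentile of mean log2 signal (6.85, a signal of 115.4) entered a limma fit (version 3.58.1, R 4.3.3) of treatment plus preparation, with a variance trend and Benjamini-Hochberg adjustment at 0.05, which leaves 1 residual degree of freedom. The script was tested on simulated data. The number of arrays limits the precision (median SE 0.364). Arrays of the same preparation did not deviate together: the back skin to other ratios of controls and of TCDD had a Pearson's r of -0.18 across probe sets, which are not replicates. All member probe sets are named, with up to 3 genes per list by size of the TCDD difference. A gene of a list was represented by its brightest probe set. Percentages called are over all tested probe sets. Alternatives were another normalization, filter, offset, floor or variance model, no block, each array left out and 1 probe set per gene. RefSeq promoter windows (GRCm38.p6) were searched for 4 motifs on both strands; the array files name no genome build.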

Additional observations from a re-analysis of the deposited data

Results flagged for a closer look

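For 7 of the 10 chemokine probe sets the TCDD array was above its control in 1 preparation and below it in the other. Opposite signs were common over all tested probe sets: 25.8% were lower with no site named and higher in back skin, and 33.5% the reverse. The ratios of the preparations had a Pearson's r of -0.25 across all tested probe sets. The log2 ratio of TCDD to control in back skin minus that with no site named was 1.78 for Ccl5, 1.18 for Ccl17, 1.08 for Cxcl2 and 0.56 for Ccl22. It was -1.71 for Ccl4, -1.81 for Ccl2, which lay below the expression filter, and -0.97 for Cxcl16 by 1418718_at. The median size of this difference over all tested probe sets was 0.53. Each ratio comes from 1 pair of arrays, so the difference was not tested. Under quantile normalization Ccl5 was lower after TCDD in both preparations (-1.60 and -0.09). Without the signal of control 1, the array with the highest actin 3′ to 5′ ratio, or of control 2, whose labels conflict, no such difference can be formed. Groups of 2 arrays are too small for a check on single outlying arrays.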

How the results depend on the processing

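Over all probe sets the counts for TCDD and for the preparation stayed at 0 under quantile normalization, median centring, no filter, the stricter filter at the 60th percentile, the offset of 100, the floor of 50, no variance trend and 1 probe set per gene. The unadjusted counts for TCDD then ranged from 96 of 9051 probe sets with the stricter filter to 514 of 22626 with no filter. With no replicate block, that is without the preparation or treatment term, both counts were again 0, with 220 and 409 probe sets at an unadjusted p under 0.05. The preparation is only assumed to pair the arrays. Leaving out an array, together with the block, which 3 arrays cannot carry with a residual, gave 0 to 285 calls for TCDD (12 without control 1 and 285 without control 2) and 0 to 89 for the preparation (89 without TCDD 1), none of them a chemokine; the cause was not tested.

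Of the single chemokine values under the alternatives, 163 had the direction of the reported value and 23 reversed, and none passed the threshold. Many of the 163 could not reverse. Another filter, no variance trend, no block with all arrays kept, the floor and the brightest probe set per gene leave these values unchanged. Only another normalization, the offset and leaving out an array change them. For Ccl2, Ccl3 and Cxcl9 the only alternative repeats the reported value. The 163 is therefore no measure of how stable the directions are. Ccl22 turned to 0.13 for TCDD under quantile normalization, and for the preparation to -0.18 under quantile normalization and -0.0395 under median centring. Ccl4 turned for the preparation to -0.0011 and -0.0228 under the same settings. With each array and the block left out, the TCDD difference ranged from -0.56 to 0.34 for Ccl4, -0.18 to 0.58 for Ccl17, -0.18 to 0.13 for Ccl22, -0.39 to 0.84 for Cxcl16 by 1418718_at and -0.33 to 0.42 for Cxcl2. The preparation difference ranged from -0.77 to 0.95 for Ccl5, -0.44 to 0.52 for Ccl4, -0.22 to 0.57 for Ccl17, -0.13 to 0.18 for Ccl22 and -0.50 to 0.0845 for Cxcl2. Ccl2, Ccl3 and Cxcl9 were below the filter and could be fitted only without it. Signals near or below the 20th percentile of an array limit what can be read from Ccl3 and Cxcl9.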

Other observations

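Socs3, an inhibitor of cytokine signalling listed with the maturation genes and chosen here after its values were seen, showed the split of arrays seen for Ccl22, Ccl17 and Cxcl2 in a wider form: it read 2107 (control 1) and 560.9 (TCDD 1) in the pair with no site named and 722.9 (control 2) and 2294 (TCDD 2) in the back skin pair. Relb, an NF-kB subunit of dendritic cells, ran the other way, with 1112.7 (control 1) and 2520 (TCDD 1) in the pair with no site named and 3017 (control 2) and 2243 (TCDD 2) in the back skin pair. Ccl12, a monocyte attractant below the expression filter, was named outside the rule. Its highest signal, 102, was on control 1, the array with the highest actin 3′ to 5′ ratio. It read 16.6 on TCDD 1, 9.6 on control 2 and 6.4 on TCDD 2. These 3 values lay below the 20th percentile of their arrays, so no fold is given.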
